A study of Mus musculus with 6 samples.

Results

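The integrated stress response and the amino acid genes tied to it were examined in WT and Mettl5 -/- mouse embryonic stem cells of the J1 line. The set held 37 genes of the 24191 in the deposited table: ATF4 and its partners, feedback genes, and genes of amino acid synthesis, transport and tRNA charging. They were taken by GENCODE M21 symbol or synonym, all 37 were found, and all passed the filter of a mean of at least 1 scaled read. The series asked how loss of METTL5, which methylates an adenosine of 18S ribosomal RNA, bears on pluripotency and developmental programmes. One group was wild type (WT, 3 libraries) and the other carried Mettl5 -/- (knockout, 3 libraries). Both were J1 cells kept 7 days in serum and LIF, the cytokine that holds mouse stem cells undifferentiated, and no other allele or agent is named. The sources used here do not give how the knockout was made, or from how many clones. Nothing says that the libraries came from separate cultures, so each p-value reflects only how much these samples vary, and that variation may be technical.

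In the integrated stress response, kinases that sense amino acid shortage, unfolded protein, haem lack or double-stranded RNA phosphorylate the initiation factor eIF2. General translation then slows while translation of the Atf4 mRNA increases. ATF4 pairs with C/EBP proteins at composite DNA sites and activates genes that make, import and charge amino acids, together with feedback genes such as Trib3 and Ppp1r15a that close the response. Because ATF4 is set mainly by translation and protein turnover, its mRNA level is only one part of its control. Proliferating stem cells use the same genes for serine, glycine, proline and one-carbon supply.

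The composite site is shown first because it is the regulatory sequence that ATF4 target genes are known for. Its core was searched as TGATGNAA on both strands of RefSeq promoter windows (GRCm38.p6, 250 bases before to 50 after the gene start), and 31 of the 37 genes had an entry. Of these, 10 (32.3%) held the core, against 4.51% of all 27025 genes with an entry. The set was assembled as ATF4 pathway genes, so this difference follows in part from how it was chosen. A match is a string of letters and not a measured binding site. Not every match is printed. Those shown, at least 1 for each of the 10 genes, run 5′ to 3′ on the gene's own strand, 30 bases or less each, with the core or its reverse complement in capitals.
Pycr1, chr11:120643833-120643862: tgccctgtgtaTGATGCAAtgcacaaggct
Chac1, chr2:119351038-119351067: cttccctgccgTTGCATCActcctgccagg
Trib3, chr2:152344028-152344057: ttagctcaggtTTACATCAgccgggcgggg
Asns, chr6:7693214-7693243: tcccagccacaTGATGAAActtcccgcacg
Aars, chr8:111033840-111033869: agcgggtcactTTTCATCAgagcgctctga
Slc1a4, chr11:20332699-20332728: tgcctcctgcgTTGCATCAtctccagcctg
Nupr1, chr7:126625562-126625591: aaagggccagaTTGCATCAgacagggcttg
Gars, chr6:55037960-55037989: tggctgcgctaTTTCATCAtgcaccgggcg
Vldlr, chr19:27216809-27216838: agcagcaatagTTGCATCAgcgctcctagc
Slc7a11, chr3:50443661-50443690: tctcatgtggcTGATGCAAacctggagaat
Slc7a11, chr3:50443642-50443671: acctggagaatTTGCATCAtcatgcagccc
The Pycr1, Asns and first Slc7a11 matches read on the gene strand and the others on the opposite strand. The Slc7a11 pair lies at -66 and -47 from the gene start in opposite orientations. The printed Aars match lies at 10 bases and the Trib3 match at 15 bases from the RefSeq start, which can differ from the GENCODE start. The Nupr1, Vldlr and Asns matches lie before the RefSeq start but inside the GENCODE span of the gene. For Nupr1 the match is at -110 from the RefSeq start, and the GENCODE gene, on the minus strand, spans 126623249 to 126630861.

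Across the whole set, 24 of 37 genes fell in the knockout, 5 rose and 8 did not pass the threshold. The threshold was a Benjamini-Hochberg adjusted p under 0.05 from limma on log2(scaled reads + 1), and log2 fold changes below are on that scale, knockout against WT. Among all 24183 genes tested, 28.9% were lower and 33.6% higher by the same rule. Among the 12944 genes at least as abundant as the lowest member, 32.7% were lower and 46.8% higher, while 64.9% of the set was lower and 13.5% higher. The median log2 fold change of the set was -0.37, against 0.00 over all genes tested. When every library was given the same total (equal totals below), the median of all genes became -0.15. The set then had 29 lower and 5 higher genes and a median of -0.53, where 37.8% of all genes were lower and 26.1% higher. On the TPM column 27 members were lower and 5 higher, against 31.9% and 29.8% of all genes. Fewer cells with high levels and less RNA per cell cannot be told apart in such bulk samples.

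Summed over the set, the level per transcript length (the deposited TPM column, called the TPM scale) was 3111, 3025 and 3064 in WT and 2231, 2223 and 2231 in knockout libraries. This was 0.309% to 0.321% of each WT library's total and 0.217% to 0.219% of each knockout library's total. The summed level of the mitochondrial folate enzymes changed by -40.3%, that of the transporters by -28.5%, of the charging enzymes by -27.3%, of the transcription factors by -26.8% and of the synthesis enzymes by -25.6%. The feedback and output genes, whose members went both ways, summed to 119 ± 1.27 in WT and 107 ± 2.01 in knockout libraries (SD, n = 3). Replicates lay close, with a median coefficient of variation per member of 3.06% for WT and 2.65% for the knockout. On the TPM scale the 2 groups did not overlap in 32 of 37 genes, 27 lower and 5 higher in the knockout, where 35.7% of all genes were lower and 32.5% higher without overlap. Ddit3, Cebpb, Cebpg, Vldlr and Slc7a3 overlapped.

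**Figure D1:**
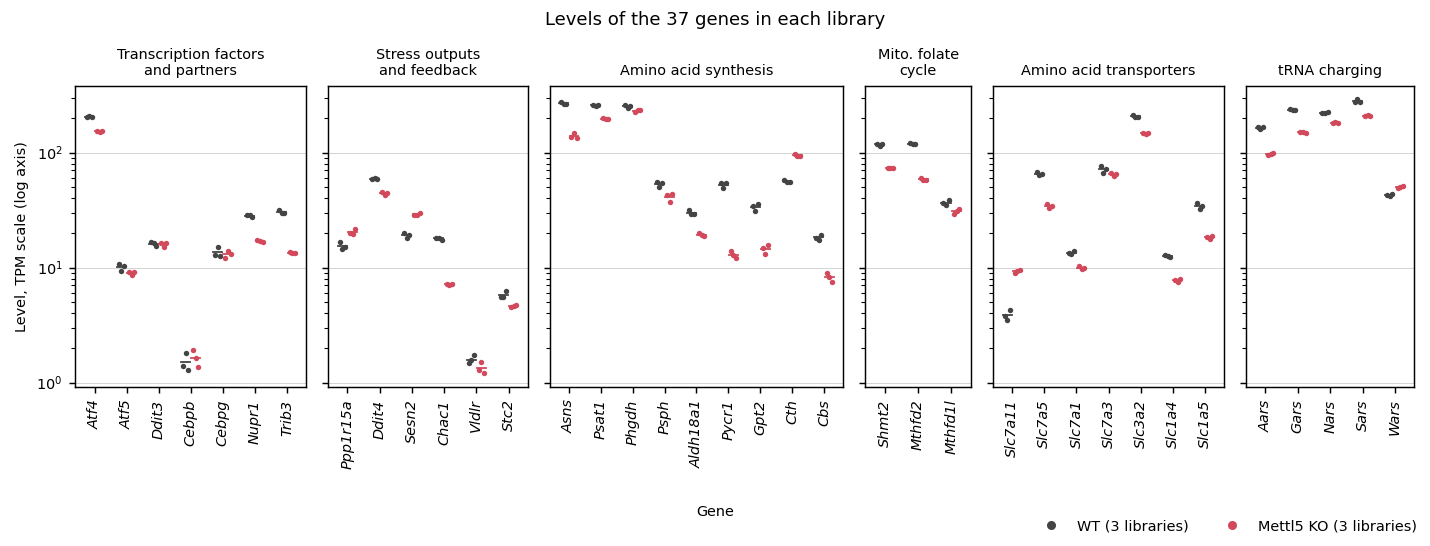
Level of each of the 37 genes on the TPM scale (log axis), by role; each point is 1 library, grey for WT and red for Mettl5 knockout, and short lines are means of 3. Red points lie below grey for most genes and above grey for Ppp1r15a, Sesn2, Cth, Slc7a11 and Wars.

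Before the groups are compared, a few facts on the libraries bear on every value. Mettl5 itself was at 48.6 to 50.3 on the TPM scale in WT and at 3.32 to 3.65 in knockout libraries (log2 fold change -3.73, limma adjusted p 5.4e-11). Estimated depth was 38540000 to 59640000 fragments per library. The stem cell markers Pou5f1, Sox2, Nanog, Zfp42, Esrrb, Utf1, Dppa5a and Tdgf1 were present in all 6 libraries, with 6 of 8 lower and 1 higher in the knockout. Among all genes tested, 28.9% were lower and 33.6% higher. Of 10 feeder fibroblast markers, 8 were higher and 1 was lower, and their summed level was 15.3 to 17.9 in the WT group and 36.3 to 37.6 in the knockout group on the TPM scale. The median log2 fold change of these 10 markers was 3.01 on scaled reads, 2.86 with equal totals and 0.65 on the TPM column. Lum was listed at 0 in 1 WT library and Lum and Dcn stayed under 1 in all 6. The part of these marker changes in the results below was not tested.

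Atf4, the central transcription factor of the response, stood at 204, 206 and 202 on the TPM scale in WT and 153, 149.9 and 155 in knockout libraries. The groups did not overlap. The change on the log2 scale was -0.37 (SE 0.0242, limma adjusted p 1.04e-06). The gene is protein-coding and lies on mm10 chromosome 15, 80255184 to 80257541 (ENSMUSG00000042406). Atf5, a related factor also controlled by eIF2, was at 10.8, 9.37 and 10.3 in WT and 9.18, 8.56 and 9.07 in knockout libraries. Its log2 fold change of -0.13 did not pass (limma adjusted p 0.0835), although it did with equal totals (-0.29, limma adjusted p 0.00264). Atf5 was also called lower on the TPM column (limma adjusted p 0.0433) and centred per chromosome (limma adjusted p 0.0369). The same held with the replicate block (limma adjusted p 0.0316). With 1 library left out in turn, it stayed uncalled in 5 of 6 fits and was lower without WT replicate 2.

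The partners and effectors of ATF4 split. Trib3, a pseudokinase that binds ATF4 and damps its activity, stood at 31.5, 29.9 and 29.8 on the TPM scale in WT and 13.7, 13.3 and 13.4 in knockout libraries. All 3 knockout values were under every WT value, and the change on the log2 scale was -1.09 (SE 0.0462, limma adjusted p 5.24e-08). Nupr1, a small stress-induced chromatin protein, fell from 28.3 ± 0.615 to 17.0 ± 0.298 (SD, n = 3), a log2 fold change of -0.65.

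Ddit3, which encodes the C/EBP family factor CHOP that acts late in the response, stood at 16.6, 16.2 and 15.4 on the TPM scale in WT and 16.3, 15.0 and 16.5 in knockout libraries. These ranges overlapped almost completely. The log2 fold change was 0.05 (limma adjusted p 0.421) and became -0.10 with equal totals, neither past the threshold. Cebpg, a dimer partner of ATF4, was at 13.6 ± 1.33 and 13.1 ± 0.924 (log2 fold change 0.01, limma adjusted p 0.875, and -0.14 with equal totals). Cebpb, another partner, was the most variable member and low, at 1.40, 1.80 and 1.29 in WT and 1.92, 1.63 and 1.37 in knockout libraries (limma adjusted p 0.341). So 3 of these 7 regulators fell (42.9%), none rose and 4 were not called. Of all genes tested, 28.9% were lower and 33.6% higher. With equal totals 4 of the 7 were lower (57.1%), where 37.8% of all genes were. Exons of Atf5, Cebpb, Cebpg and Ddit3 share bases with another annotated gene, as do those of Ppp1r15a, Psph, Shmt2 and Aars, 8 members in all. The strand setting of the counting is not given, so reads of such partners cannot be told apart with certainty.

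The output and feedback genes went in both directions, with 2 of 6 lower, 2 higher and 2 not called. These shares, 33.3% each way, lie near those of all genes tested, 28.9% lower and 33.6% higher. With equal totals 4 were lower and 2 higher, where 37.8% of all genes were lower and 26.1% higher. Chac1, a glutathione-degrading enzyme that is induced by ATF4, stood at 18.2, 18.2 and 17.4 on the TPM scale in WT and 7.24, 7.11 and 7.22 in knockout libraries. Replicates lay close together and the groups were far apart. WT levels were 2.49 times those of the knockout, and the change on the log2 scale was -1.26 (SE 0.0389, limma adjusted p 6.92e-09). Chac1 (ENSMUSG00000027313) is protein-coding and lies on chromosome 2, 119351229 to 119354381. Ddit4 (REDD1), an inhibitor of mTORC1 signalling, fell from 59.4 ± 0.669 to 44.2 ± 1.17 (log2 fold change -0.37).

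Sesn2, a leucine-binding stress protein that also restrains mTORC1, moved the other way. It stood at 20.1, 18.1 and 19.2 on the TPM scale in WT and 28.5, 28.8 and 29.9 in knockout libraries, with no overlap. On the log2 scale this was a rise of 0.65 (SE 0.0393, limma adjusted p 5.52e-07). Ppp1r15a (GADD34), the stress-induced subunit of the phosphatase that restores eIF2, was at 16.5, 14.5 and 15.0 in WT and 20.2, 19.6 and 21.6 in knockout libraries (log2 fold change 0.47, limma adjusted p 5.01e-05). Its constitutive relative Ppp1r15b fell by 0.29 on the log2 scale (limma adjusted p 2.05e-05). The ratio of Ppp1r15a to Ppp1r15b was therefore 0.639 ± 0.044 in WT and 1.08 ± 0.0518 in knockout libraries (SD, n = 3).

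Neither Vldlr, a lipoprotein receptor, nor Stc2, a secreted glycoprotein, passed the threshold. Vldlr was at 1.59 ± 0.124 and 1.33 ± 0.159 on the TPM scale, a log2 difference of -0.21 with a limma adjusted p of 0.0998. Stc2 was at 5.80 ± 0.377 and 4.64 ± 0.0615 (log2 fold change -0.23, limma adjusted p 0.0725). With equal totals both were called lower, at -0.36 and -0.39, and with values centred per chromosome Stc2 changed sign, to 0.18 (limma adjusted p 0.131).

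**Figure D2:**
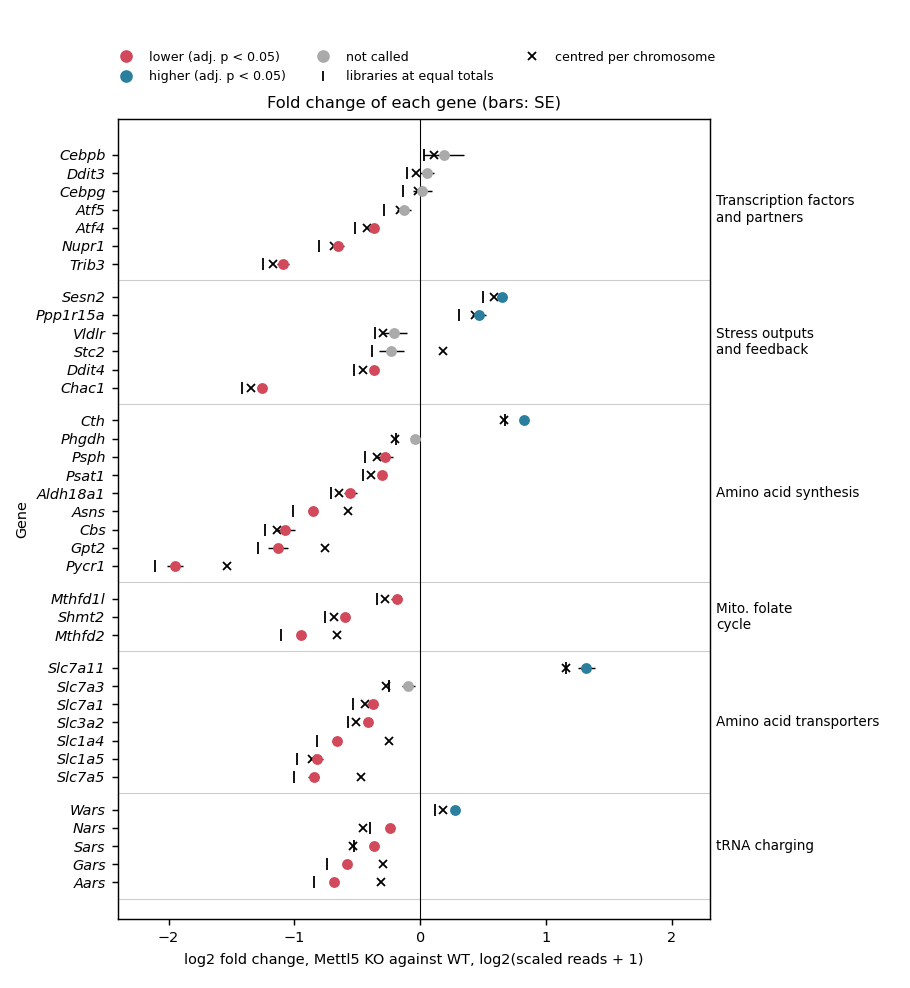
Log2 fold change of each gene, knockout against WT, on the log2(scaled reads + 1) scale with its SE (circles and bars), by role. Red circles are lower, blue higher and grey not called (limma adjusted p under 0.05). Vertical ticks give the value with libraries at equal totals and crosses the value centred per chromosome. The 24 red and 5 blue circles have ticks and crosses on the same side of 0.

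Among the amino acid synthesis genes, 7 of 9 fell (77.8%), Cth rose and Phgdh was not called, where 28.9% of all genes tested were lower. Asns makes asparagine and is the classic readout of amino acid shortage. It stood at 275, 264 and 264 on the TPM scale in WT and 136, 147 and 135 in knockout libraries (log2 fold change -0.86, SE 0.0385, limma adjusted p 7.88e-08). By level per length it was the gene of rank 2 of the set in WT and of rank 8 in the knockout. Asns (ENSMUSG00000029752) is protein-coding and lies on chromosome 6, 7675169 to 7693254.

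Both proline enzymes of the set fell. Pycr1, the mitochondrial reductase of the last step, had the largest fold change of the 37 genes. It stood at 53.9, 49.0 and 54.7 on the TPM scale in WT and 13.8, 12.9 and 12.02 in knockout libraries, so WT levels were 4.07 times those of the knockout. The value on the log2 scale was -1.95 (SE 0.0636, limma adjusted p 9.54e-09), and -1.54 with values centred per chromosome, since Pycr1 lies on chromosome 11 (120635712 to 120643769). Aldh18a1, which starts proline synthesis from glutamate, fell from 29.9 ± 1.57 to 19.2 ± 0.571 (SD, n = 3; log2 fold change -0.56). Gpt2, the mitochondrial alanine transaminase, was at 34.2, 31.0 and 35.4 in WT and 14.8, 13.04 and 15.8 in knockout libraries (log2 fold change -1.13, limma adjusted p 1.38e-06).

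The 3 enzymes of serine synthesis, which act in the order Phgdh, Psat1 and Psph, differed in the size of their change. Phgdh stood at 258, 241 and 254 on the TPM scale in WT and 226, 235 and 232 in knockout libraries. Its log2 fold change on scaled reads was -0.04 (limma adjusted p 0.335), and -0.20 with equal totals, which passed. Phgdh was also called lower on the TPM column (-0.12, limma adjusted p 0.0162) and centred per chromosome (-0.20, limma adjusted p 0.000657). It was not called with the replicate block (limma adjusted p 0.334) or in any of the 6 fits with 1 library left out. Psat1 fell from 257 ± 1.85 to 197 ± 1.96 and Psph from 53.0 ± 2.61 to 41.3 ± 3.42 (SD, n = 3), with log2 fold changes of -0.30 and -0.28. The ratio of Psat1 to Phgdh was 0.998, 1.06 and 1.02 in WT and 0.876, 0.826 and 0.850 in knockout libraries, so the groups did not overlap.

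The 2 consecutive enzymes of transsulfuration, which turns homocysteine into cysteine, went in opposite directions. Cbs, the first, stood at 18.1, 17.5 and 19.3 on the TPM scale in WT and 9.04, 8.28 and 7.53 in knockout libraries (log2 fold change -1.07, limma adjusted p 1.46e-06). Cth, the second, was at 58.3, 55.3 and 55.8 in WT and 97.5, 92.9 and 94.2 in knockout libraries (log2 fold change 0.83, SE 0.0337, limma adjusted p 4.02e-08). The ratio of Cth to Cbs was 3.22, 3.16 and 2.89 in WT and 10.8, 11.2 and 12.5 in knockout libraries, a 3.72-fold difference. Such a ratio within a library does not depend on how libraries are scaled. For this and the other 8 ratios computed, an exact two-sided permutation test gave p = 0.1, also after Benjamini-Hochberg adjustment, which is the smallest p that 3 against 3 libraries allow.

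All 3 genes of the mitochondrial folate cycle fell, where 28.9% of all genes tested were lower. The cycle takes one-carbon units from serine and exports them as formate. Shmt2, which splits serine, stood at 120, 115 and 118 on the TPM scale in WT and 73.5, 73.8 and 73.5 in knockout libraries (log2 fold change -0.60, limma adjusted p 1.16e-07). Mthfd2, the next enzyme, was at 120, 118 and 118 in WT and 59.9, 57.2 and 57.9 in knockout libraries (log2 fold change -0.95, SE 0.0307, limma adjusted p 9.18e-09). Mthfd1l, which releases formate, changed least, from 36.6 ± 1.6 to 31.0 ± 1.52 (log2 fold change -0.19, limma adjusted p 0.00331).

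Of the 7 transporters, 5 fell (71.4%), Slc7a11 rose and Slc7a3 was not called, where 28.9% of all genes tested were lower. Slc7a5 and Slc3a2 are the light and heavy chain of the exchanger LAT1, which brings in leucine and other large neutral amino acids. Slc7a5 stood at 67.6, 63.9 and 65.2 on the TPM scale in WT and 35.9, 33.1 and 34.3 in knockout libraries (log2 fold change -0.85, limma adjusted p 1.44e-07). The shared heavy chain Slc3a2 was at 212, 204 and 202 in WT and 149, 145 and 147 in knockout libraries (log2 fold change -0.42, limma adjusted p 8.26e-07). The heavy chain thus fell by less than this light chain, and the ratio of Slc7a5 to Slc3a2 went from 0.318 ± 0.00466 to 0.234 ± 0.00671 (SD, n = 3). Centred per chromosome this order was lost, at -0.47 for Slc7a5, on chromosome 8, and -0.51 for Slc3a2, on chromosome 19.

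Slc7a11, the light chain that joins the same heavy chain to import cystine in exchange for glutamate, rose. It stood at 3.79, 3.53 and 4.29 on the TPM scale in WT and 8.98, 9.35 and 9.52 in knockout libraries (log2 fold change 1.32, SE 0.0678, limma adjusted p 1.92e-07). No other member of the set rose by 1 or more on the log2 scale. The ratio of Slc7a11 to Slc7a5 was 0.056, 0.0552 and 0.0657 in WT and 0.25, 0.282 and 0.278 in knockout libraries, a 4.59-fold difference. This ratio is not corrected for the shift of chromosome 8, on which Slc7a5 lies. Centred per chromosome the log2 fold changes were 1.16 for Slc7a11 and -0.47 for Slc7a5. Slc7a11 nevertheless stayed the less abundant light chain in all 6 libraries.

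The glutamine and neutral amino acid transporter Slc1a5 fell from 34.3 ± 1.95 to 18.4 ± 0.577 on the TPM scale (SD, n = 3), a change of -0.82 on the log2 scale with a limma adjusted p of 7.19e-07. The related Slc1a4, which carries serine and alanine, fell from 12.7 ± 0.263 to 7.73 ± 0.205 (log2 fold change -0.66), and by 0.25 on the log2 scale with values centred per chromosome. Among the carriers of cationic amino acids, Slc7a1 fell (log2 fold change -0.38, limma adjusted p 4.02e-05). Slc7a3, the more abundant one here, was at 77.0, 66.2 and 72.1 in WT and 66.8, 62.3 and 65.1 in knockout libraries (log2 fold change -0.09, limma adjusted p 0.142). It was called lower with equal totals (-0.25, limma adjusted p 0.00283), centred per chromosome (-0.27, limma adjusted p 0.00134), with the replicate block (limma adjusted p 0.0186) and without WT replicate 2 (limma adjusted p 0.012). Its ranges overlapped in that WT replicate 2 lay within the knockout values.

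The charging enzymes attach amino acids to their tRNAs, and 4 of the 5 in the set fell, where 28.9% of all genes tested were lower. Aars, for alanine, stood at 166, 159 and 166 on the TPM scale in WT and 95.9, 97.2 and 98.1 in knockout libraries (log2 fold change -0.68, limma adjusted p 6.19e-08). Gars, for glycine, fell from 235 ± 2.33 to 149 ± 1.13, Sars, for serine, from 280.0 ± 8.22 to 208 ± 1.64, and Nars, for asparagine, from 221 ± 2.15 to 181 ± 2.08 (SD, n = 3). Their log2 fold changes were -0.58, -0.37 and -0.24. Wars, for tryptophan, rose from 42.9 ± 0.71 to 50.1 ± 0.9 (log2 fold change 0.28, limma adjusted p 1.84e-05), and by 0.12 with equal totals. Wars was also the least abundant of the 5 in WT.

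**Figure D3:**
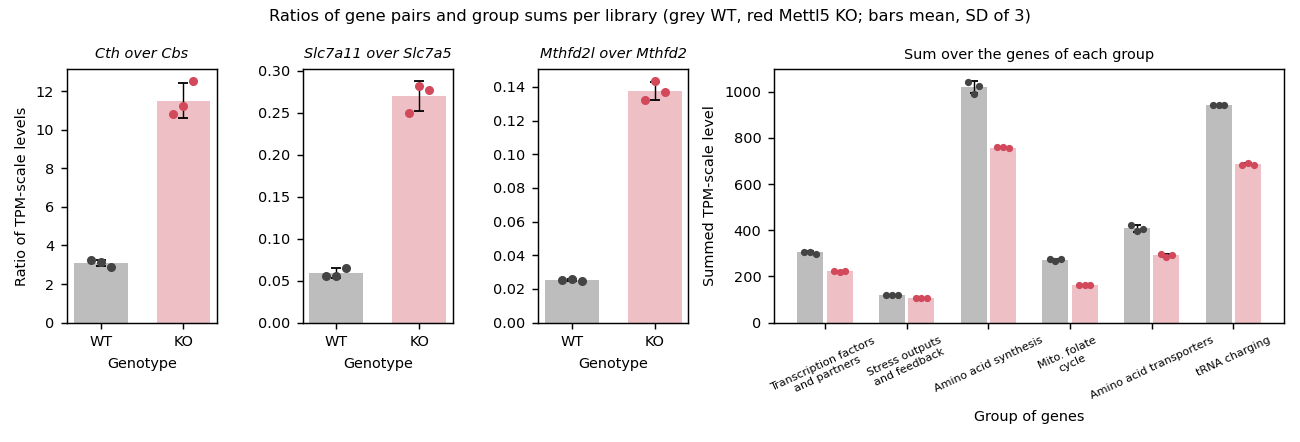
Left, ratios of TPM-scale levels for Cth over Cbs, Slc7a11 over Slc7a5 and Mthfd2l over Mthfd2; right, summed TPM-scale level of the genes of each role. Bars are means, error bars SD of 3 libraries and points single libraries, grey for WT and red for knockout. All 3 ratios are higher in every knockout library than in any WT library, and all 6 sums are lower.

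The values were also read by chromosome, since 53.2% of the 4176 non-members on chromosomes 6, 8 and 11 were lower, against 23.7% of the 19625 elsewhere. Of the set, 9 genes lie on these chromosomes: Asns, Mthfd2 and Gars on 6, Gpt2, Slc7a5 and Aars on 8, and Pycr1, Slc1a4 and Stc2 on 11. All but Stc2 fell, and their median log2 fold change was -0.85, against -0.28, -0.38 and -0.41 for the other genes of chromosomes 6, 8 and 11. Among the 28 members on other chromosomes, 16 fell, 5 rose and 7 were not called, with a median of -0.26, against 0.08 for the non-members there. When each gene was measured against the median of its own chromosome, 28 members were lower, 5 higher and 4 not called, with a median of -0.39, where 28.1% of all genes were lower and 32.8% higher. The falls of Aars, Gars, Slc1a4 and Slc7a5 became smaller, at -0.31, -0.30, -0.25 and -0.47, and stayed past the threshold.

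**Figure D4:**
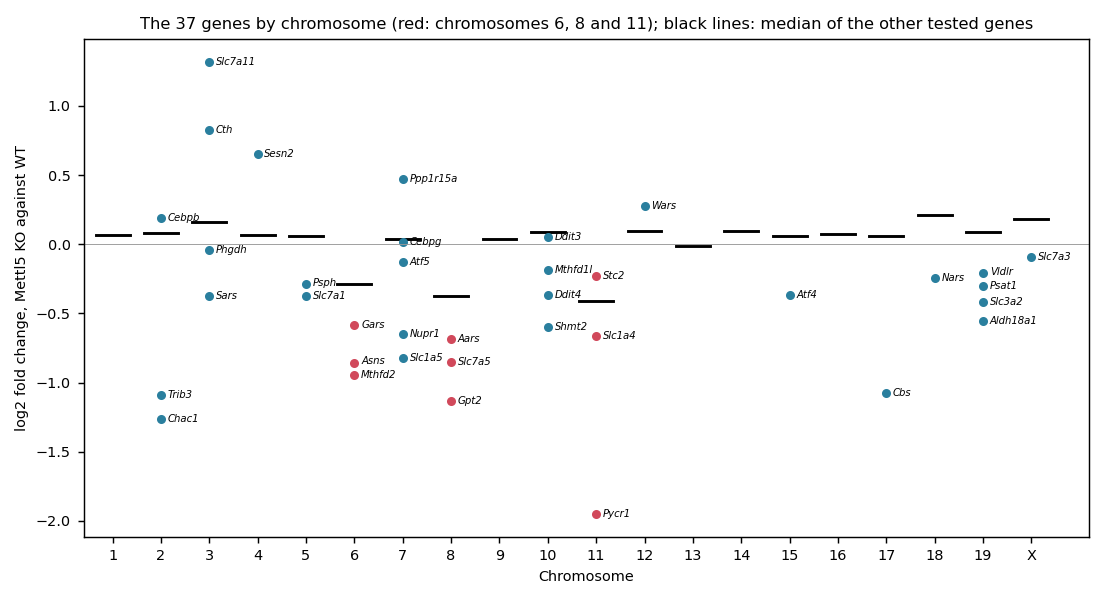
Log2 fold change of each of the 37 genes (points) by chromosome, with the median of all other tested genes of that chromosome as a black line. The lines for chromosomes 6, 8 and 11 (red points) lie at -0.28, -0.38 and -0.41, and 8 of the 9 red points lie below their line, all but that of Stc2.

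The 10 genes with the printed composite core had 8 lower and 1 higher member, Slc7a11, with Vldlr not called, and a median log2 fold change of -0.67. The 21 genes whose window lacked these letters had 13 lower, 2 higher and 6 not called, and a median of -0.30. By the same rule, 28.9% of all genes tested were lower and 33.6% higher. Pycr1, Chac1 and Trib3 hold the core and were among the 5 genes that fell by at least 1 on the log2 scale, and Gpt2 and Cbs, the other two, lacked it in this window. Of the 10, Pycr1, Asns, Aars, Gars and Slc1a4 lie on chromosomes 6, 8 and 11. Centred per chromosome their falls became smaller, at -1.54, -0.57, -0.31, -0.30 and -0.25. Those of Chac1, Trib3 and Nupr1, on other chromosomes, became larger, at -1.34, -1.17 and -0.69. Both medians above are from uncentred values and were not computed on centred ones, so the part of the chromosomes in their difference is not known. The difference between these 2 sets was not tested.

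Upstream of ATF4, the genes of the eIF2 kinases, eIF2 and its exchange factor eIF2B had 9 of 15 higher and 3 lower, with a median of 0.20. With equal totals this became 4 higher and 5 lower. For this list and those below, 33.6% of all genes tested were higher and 28.9% lower, and with equal totals 26.1% and 37.8%. Among genes at least as abundant as the lowest member, 46.8% were higher and 32.7% lower. Impact, whose product inhibits the amino acid sensing kinase GCN2, stood at 95.1, 93.1 and 95.1 on the TPM scale in WT and 257, 249 and 244 in knockout libraries (log2 fold change 1.48, SE 0.0295, limma adjusted p 4.5e-10). Eif2ak4, which encodes GCN2 itself, was at -0.07 on the log2 scale (limma adjusted p 0.161), and -0.22 with equal totals, which passed. Eif2ak3, for the endoplasmic reticulum kinase PERK, fell from 10.9 ± 0.148 to 6.71 ± 0.343 (SD, n = 3; log2 fold change -0.64, and -0.36 centred per chromosome, as it lies on chromosome 6). The other two that were lower were Ppp1r15b and the eIF2B subunit gene Eif2b5 (-0.21), whereas the subunit gene Eif2b4 rose by 0.51.

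The 15 other cytosolic charging enzymes had 4 lower, 3 higher and 8 not called, with a median of -0.04. The lower ones were Kars (-0.39), Cars (-0.21), Eprs (-0.12) and Dars (-0.08), and the higher ones Hars (0.23), Qars (0.15) and Mars1 (0.10). With equal totals 12 were lower and 1 higher, with a median of -0.20, and Qars and Mars1 turned to -0.01 and -0.05, not called. By comparison, the 5 enzymes of the set had a median of -0.37, and -0.53 with equal totals. Kars is on chromosome 8, and centred per chromosome its value was -0.02. Hars was at 0.07 with equal totals and at 0.015 centred per chromosome, where it was not called (limma adjusted p 0.652). The mitochondrial charging enzymes had 9 of 17 lower and 5 higher (median -0.15). Cars2 fell by 0.78 and Wars2, for mitochondrial tryptophan, rose from 1.89 ± 0.111 to 4.86 ± 0.567 on the TPM scale (SD, n = 3; log2 fold change 1.41). The other higher ones were Yars2 (0.27), Pars2 (0.25), Mars2 (0.18) and Sars2 (0.15), and with equal totals Wars2 and Yars2 alone of these 5 were called, and Sars2 turned to -0.01. The list then had 10 lower and 2 higher.

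Other amino acid transporters had 10 of 18 higher and 5 lower (median 0.24), and 5 higher and 7 lower with equal totals. The system A carrier Slc38a4, which takes up small neutral amino acids, was at 75.4 ± 2.96 in WT and 130.2 ± 1.18 in knockout libraries on the TPM scale, a log2 difference of 0.84 with a limma adjusted p of 2.3e-08, and Slc38a1 rose by 0.79. Slc1a1, a glutamate and aspartate carrier, fell from 1.33 ± 0.126 to 0.363 ± 0.0214 (log2 fold change -1.80). The other lower ones were Slc6a9 (-1.02), Slc7a2 (-0.86), Slc43a2 (-0.49) and Slc36a1 (-0.34), of which Slc43a2 and Slc36a1 were not called centred on chromosome 11, at -0.08 and 0.07.

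Among the other folate, glycine and threonine enzymes, 5 of 13 were higher and 6 lower (median -0.18). With equal totals 3 were higher and 7 lower (median -0.33), and centred per chromosome 3 were higher and 5 lower (median -0.01). Mthfd2l, an isoenzyme of Mthfd2 in the same organelle, stood at 3.08, 3.06 and 2.93 on the TPM scale in WT and 7.92, 8.20 and 7.93 in knockout libraries (log2 fold change 1.46, limma adjusted p 2.57e-08). The ratio of Mthfd2l to Mthfd2 was 0.0254 ± 0.000526 in WT and 0.138 ± 0.00549 in knockout libraries, so Mthfd2 stayed the more abundant. Mthfd2 lies on chromosome 6, and its log2 fold change of -0.95 was -0.66 centred per chromosome. Shmt1, the cytosolic partner of Shmt2, fell by 0.54 on the log2 scale, and by 0.13 centred per chromosome, as it lies on chromosome 11. Tdh, the threonine dehydrogenase on which mouse stem cells are known to depend, fell from 208 ± 6.0 to 176 ± 3.97 (SD, n = 3), a change of -0.18 on the log2 scale with a limma adjusted p of 0.000749. Gldc, of the glycine cleavage system, fell by 0.35. Other higher genes included Tyms (0.51), Amt (0.29) and Mthfd1 (0.09), and Mthfd1 was not called with equal totals, with its sign turned (-0.07). Tdh was chosen for mention after its values were seen, as was Eif2ak4 above.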

How the data were processed

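PolyA RNA was sequenced in 3 WT and 3 Mettl5 knockout libraries. Per the labels' protocols, 0.1 µg of RNA, selected in repeated rounds on oligo dT and cut to about 100 nt, went into each stranded library. Kallisto, sleuth and the mm10 build are named per the submitters' processing notes, with no versions. The sources used here do not give the strand setting or which transcripts were quantified. Both columns of the deposited table were treated as signal, scaled between libraries by the authors, since per the file headers they are scaled reads per base and TPM but neither holds whole counts. Column totals of TPM ran from 969840 to 978170 for WT and from 1019930 to 1022470 for the knockout. Depth was estimated from the steps of low values, with 29.7% to 32.8% of values from 0.5 to 40 on a step, against a median of 3.29% to 3.51% over other steps.

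Genes were named from GENCODE M21 (23846 of 24191 identifiers matched), and limma 3.58.1 (trend option, under R 4.3.3) was fitted to log2(scaled reads + 1) of 24183 genes. Fold changes on this scale understate the change of low genes. The fit was also run on simulated data with independent noise and few changed genes. Here many genes changed and whole chromosomes shifted, so that run does not show how well the fit does on these data. Ratios used exact permutation tests (scipy 1.17.1). The members, the lists and the rule for named genes (Mettl5, all 37 members, and of each other list the 3 genes with the smallest p and those in counts of 5 or fewer) were chosen with earlier results of these data known. Replicate pairs differed by more than counting noise (chi-square per degree of freedom 3.23 to 8.09), so no library was merged. Alternatives were equal totals, the TPM column, pseudocounts of 0.1 and 10, other filters, centring per chromosome, a replicate block and leaving out each library. A few single genes and 1 promoter match are not reported here.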

Additional observations from a re-analysis of the deposited data

How the results depend on the processing

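All 29 calls in the set, 24 lower and 5 higher, were kept with the same direction under each of the 14 alternatives run. Within the set, the alternatives changed the call or sign only of genes that had not been called. The median log2 fold change of the set, -0.37, was -0.53 with equal totals and -0.42 on the TPM column, and leaving out 1 library in turn gave -0.38 to -0.35. Ddit3 went from 0.05 to -0.10 with equal totals, -0.014 on the TPM column and -0.0358 centred per chromosome. Cebpg went from 0.01 to -0.14, -0.0417 and -0.0195 under the same alternatives, and from -0.0365 to 0.0935 with 1 library left out, below 0 without WT replicate 1, WT replicate 3 or knockout replicate 2. Stc2 went from -0.23 to 0.18 centred per chromosome. The cause of these changes was not tested. With equal totals, over all genes, 9147 were lower and 6309 higher. Of the called genes, 40.8% were then higher in place of 53.8%, and in the set 14.7% in place of 17.2%. Counts for eIF2 genes, other transporters, other charging enzymes and other folate, glycine and threonine enzymes moved with the scaling by more than 1.5 times, as given with them. With the replicate block, 26 members were lower and 5 higher, and 8183 genes were higher and 6927 lower. Same-numbered libraries had deviations correlated at 0.114, 0.0786 and 0.132, and the other pairs at -0.108 to 0.00483. Every library thus correlated best with its own number. Not all of the same-numbered values were over 0.1, and the main fit did not pair the libraries. Whether same-numbered libraries were handled together is not given and was not tested. Stc2, Cebpb and Vldlr had the lowest means, 120.3, 124 and 264 scaled reads, and the largest standard errors, and the part of depth in this was not tested.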

Other observations

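Families close to the set were read in the same way. Of 12 other ATF and C/EBP family factors, 8 were higher and 2 lower (median log2 fold change 0.32), where 33.6% of all genes were higher and 28.9% lower. Among genes at least as abundant as the lowest member, 46.8% were higher and 32.7% lower. With equal totals 6 factors were higher and 3 lower (median 0.16), where 26.1% of all genes were higher and 37.8% lower. Atf3, a stress-induced repressor that ATF4 can activate, had TPM-scale levels of 2.24, 1.93 and 2.50 in WT and 9.92, 10.7 and 9.72 in knockout libraries (log2 fold change 2.24), where Atf4, Trib3 and Chac1 were lower. Creb3, a factor released from the endoplasmic reticulum membrane, was at 11.9, 11.2 and 12.3 in WT and 62.7, 58.8 and 53.7 in knockout libraries (log2 fold change 2.38, limma adjusted p 2.96e-09). Jdp2, a repressor of AP-1 sites, rose from 4.45 ± 0.216 to 9.59 ± 0.443 (SD, n = 3). The 2 factors lower on scaled reads were Cebpa (-0.62) and Crebrf (-0.31).

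The XBP1 and ATF6 branches of the unfolded protein response had 4 of 13 higher (30.8%) and 5 lower (38.5%), with a median of 0.00. These shares lie near the 33.6% higher and 28.9% lower of all genes tested. The chaperone Hspa5 (BiP) rose from 295 ± 9.42 to 389.6 ± 8.35 on the TPM scale (SD, n = 3), and Manf, Hsp90b1 and Creld2 rose by 0.44, 0.38 and 0.10, Creld2 turning to -0.06 with equal totals, not called. Xbp1 fell from 66.6 ± 2.22 to 37.8 ± 1.35, and Sdf2l1, Herpud1, Ern1 and Edem1 fell by 0.95, 0.96, 0.73 and 0.49. Xbp1, Ern1, Herpud1 and Edem1 lie on chromosomes 11, 11, 8 and 6, and centred per chromosome their values were -0.34, -0.32, -0.59 and -0.20. Amino acid sensing genes upstream of mTORC1 had 6 of 16 higher and 8 lower (median -0.05), and 6 higher and 5 lower centred per chromosome (median 0.06). Rragd and Lamtor1, of the lysosomal platform that recruits mTORC1, rose by 0.68 and 0.52, and the arginine sensor gene Castor1 fell by 0.56, or by 0.15 centred on chromosome 11.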
